A study of Salmo salar with 16 samples.

Results

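LOC106590258 is a gene of Atlantic salmon that the deposited annotation calls homeobox protein Dlx2a-like. It was chosen by its counts in these same libraries, which earlier results showed to be high in the ovary, and it is 1 of the 81574 genes in the count table. It is set here against the 17 other genes with Dlx or distal-less in their product. Since its counts led to its choice, its own levels are given as a description without a test.

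The study made RNA-Seq libraries from the mid-brain (brain below), the pituitary gland, the ovary and the liver, 4 of each and 16 in all. The methods name 4 animals, sexually immature females aged 3 years of the SALTAS breeding program, and every tissue came from fish of that one sex and stage. No treatment, genotype or maturation group was compared, so each value below belongs to immature females. The total count per library ran from 20.6 M to 51.9 M, and brain replicate 2 was the deepest.

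The homeobox encodes a DNA-binding domain shared by many transcription factors that pattern the embryo. Vertebrate Dlx genes usually lie in pairs whose members converge on each other, and they act in the forebrain, the jaws and arches, the fins or limbs and the inner ear. In the forebrain, Dlx1, Dlx2, Dlx5 and Dlx6 mark developing inhibitory neurons.

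The annotation placed LOC106590258 on chromosome 29, at chr29:20183753-20187825 of assembly ICSASG_v2, on the minus strand. It had 1 transcript with 4 exons and a merged exon length of 3110 bases. The 4 exons measured 625, 359, 117 and 2009 bases, and the last held 1712 untranslated bases after the coding part. The predicted protein had 385 residues.

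Some of these features set it apart from the genes whose name it carries. The 13 Dlx genes with a single transcript had proteins between 249 and 286 residues, and 14 of the 17 had 3 exons. LOC106583891 had 4 merged exons too, and the last exon of LOC106600936 was longer, at 2177 bases. Of those 17 genes, 16 formed 8 pairs on the same chromosome, each pair tail to tail with a gap between 3281 and 32586 bases. The exception was LOC106569498, a Dlx2b-like gene on chromosome 14 with no partner within 40 kb. LOC106590258 had no other Dlx gene anywhere on chromosome 29. The table of RefSeq genes on the newer assembly Ssal_v3.1 gives the same identifier the symbol nanog. The salmon Dlx2 gene names of that annotation belong elsewhere, with dlx2 on chromosome 25 now called dlx2a. The protein length, the lack of a Dlx partner and the newer symbol thus go against the label Dlx2a-like. The sequence itself was not compared, and the gene is called LOC106590258 throughout. As background, Nanog is a homeodomain factor of pluripotent cells in mammals, and in zebrafish its message is laid down in the egg and acts when the zygotic genome is first switched on.

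**Figure D1:**
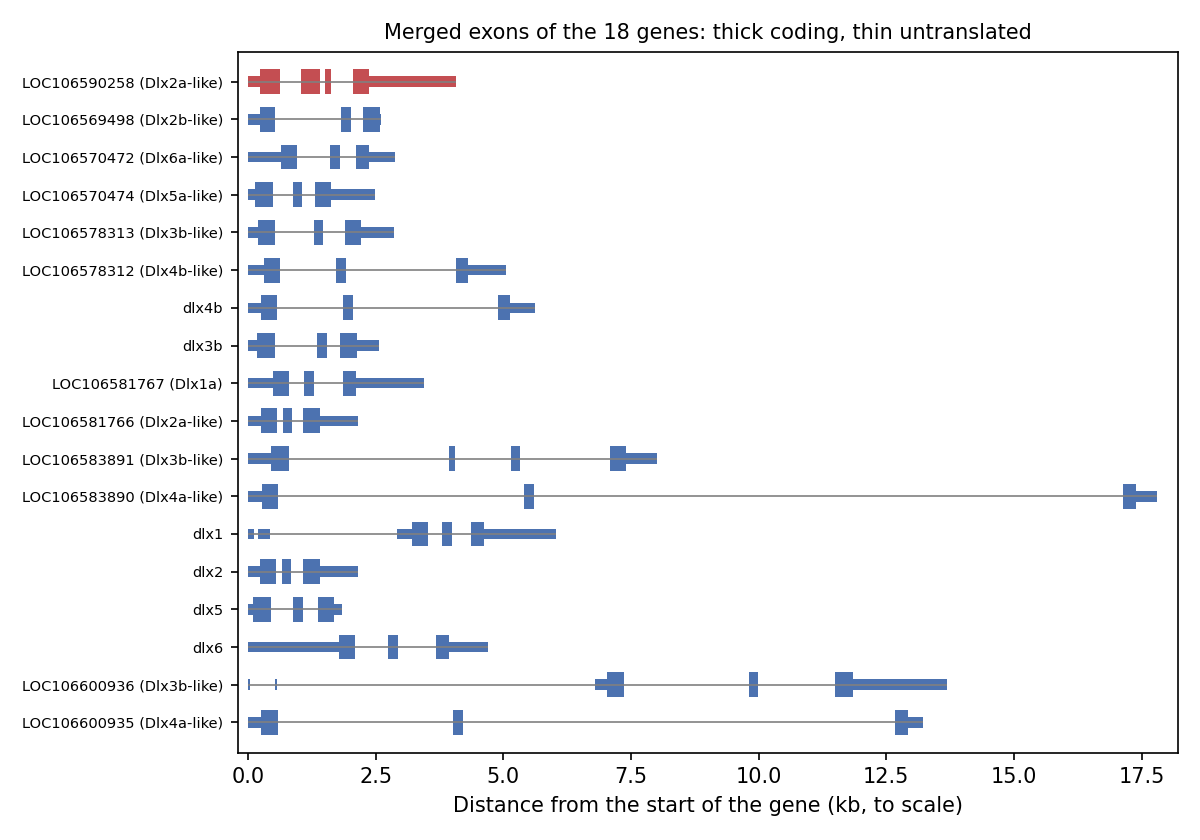
Merged exons of LOC106590258 (red) and the 17 other Dlx genes (blue), drawn to scale from the start of each gene in kb, with thick boxes for coding parts, thin boxes for untranslated parts and grey lines for introns. LOC106590258 had 4 exons and a final exon of 2009 bases, and most Dlx genes had 3 exons. LOC106583891 also had 4 exons, and LOC106600936 had a final exon of 2177 bases.

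In the ovary the gene had counts of 6063, 6329, 4722 and 5510 in replicates 1 to 4. The pituitary gland had 12, 13, 14 and 9, and the liver 12, 9, 12 and 8. In the brain the counts were 13, 217, 25 and 11. Every ovary library lay far above every library of the other tissues, and 98.5% of all counts of the gene fell in the ovary. One brain library, replicate 2, stood above the rest of the non-ovary libraries.

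Counts were scaled to CPM, the count per M of library counts, with library sizes corrected by TMM, the trimmed mean method of edgeR. The ovary mean was 137.9 CPM ± 10.3 (SD, n = 4), with single libraries between 125.5 and 150.4 CPM. The brain mean was 1.11 CPM ± 1.27 (SD, n = 4), the liver mean 0.909 CPM ± 0.22 (SD, n = 4) and the pituitary mean 0.445 CPM ± 0.0856 (SD, n = 4). The order was thus ovary, brain, liver and pituitary gland, and only the first place was clear of the spread. Brain overlapped both liver and pituitary gland. The 4 liver libraries lay above the 4 pituitary libraries on this scale, but with plain library totals the means were 0.467 CPM and 0.442 CPM.

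The ovary mean was 123.7 times the brain mean, 151.7 times the liver mean and 309.9 times the pituitary mean. The liver and pituitary means rest on 8 to 14 counts per library, and the gap between those ratios depends on the scaling. Without brain replicate 2, the ratio to brain became 283.6, and the next highest tissue was then the liver. The lowest ovary library exceeded the highest library of any other tissue 41.8 times. The smallest count was 8, in liver replicate 4, and its exact 95% Poisson interval ran from 3.45 to 15.8, which covers counting error only. The plot of CPM by library shows the gap between the ovary and the other 3 tissues, and the 1 brain library in between.

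**Figure D2:**
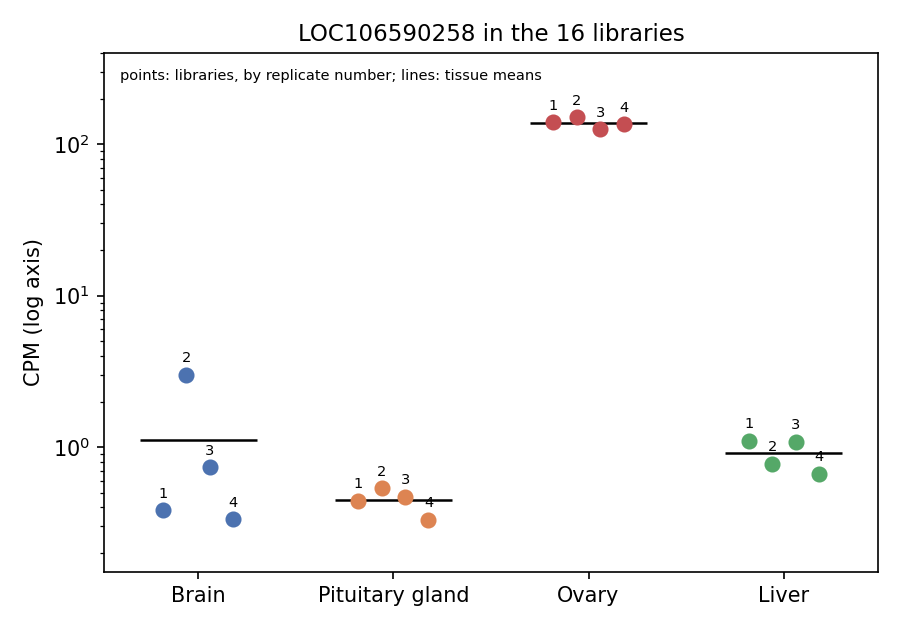
CPM of LOC106590258 in each of the 16 libraries on a log axis, with points numbered by replicate and lines at the tissue means. The ovary libraries sit between 125.5 and 150.4 CPM, and brain replicate 2 at 3.001 CPM is the highest of the others.

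Among ovary transcripts the gene ranked 557 of all genes by mean CPM, and it took between 0.0186% and 0.0213% of the counts of an ovary library. Levels of different genes were compared per length, as FPKM, the CPM divided by the exon length in kb. On that scale LOC106590258 had 44.3 FPKM ± 3.33 in the ovary (SD, n = 4) and ranked 1 of the 526 genes with homeobox or Dlx in the product. It held 8.52% of the summed ovary FPKM of those genes.

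The next in that order were LOC106570229, an ADNP homeobox protein 2-like gene, with 42.0 FPKM ± 2.89 (SD, n = 4), and homez, which joins homeobox and leucine zipper motifs, with 34.5 FPKM ± 1.84 (SD, n = 4). The difference between ranks 1 and 2 lay within the spread of the replicates, and rank 3 lay below both. LOC106599206, a LIM-homeobox gene of the Lhx8 type, had 31.0 FPKM ± 2.67, and LOC106565775, an ADNP-like gene, had 26.9 FPKM ± 1.30 (SD, n = 4 each). Lhx8 is known in mice both from forebrain neurons and from oocytes.

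Rank 2 and rank 3 were found in the other tissues too, at up to 3.74 FPKM and 9.98 FPKM. Outside the ovary, LOC106590258 reached at most 0.358 FPKM and LOC106599206 at most 0.149 FPKM as a tissue mean. Of the 526 genes, 414 had a count in an ovary library and 53 had a mean of at least 1 FPKM there. The scatter of homeobox genes places LOC106590258 at the top left, far from the Dlx genes.

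**Figure D3:**
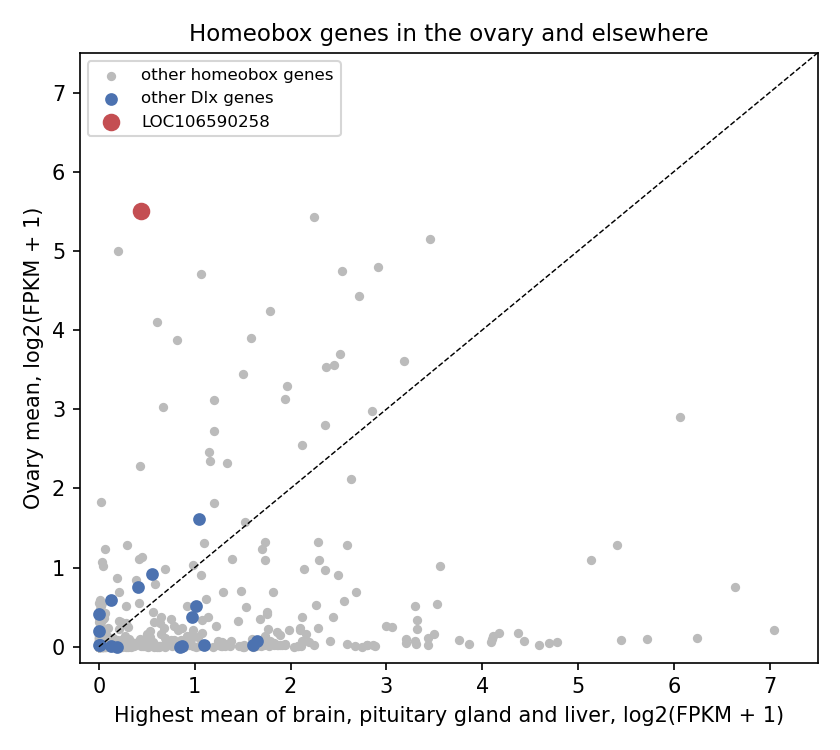
Mean ovary level against the highest mean of the other 3 tissues for 526 homeobox genes, both as log2(FPKM + 1), with a dashed line at equality. LOC106590258 (red) has 44.3 FPKM in the ovary and 0.358 FPKM in the brain, while the other Dlx genes (blue) lie low on the ovary axis.

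The other 17 Dlx genes were at most 2.22 FPKM in any library outside a pair of brain libraries. That value was LOC106581766 in ovary replicate 1, between its 1.59 FPKM in brain replicate 3 and its 2.64 FPKM in brain replicate 4. The ovary level of LOC106590258 was 8.08 times the summed ovary FPKM of the 17. Their summed counts were 418, 418, 390 and 515 in the ovary, 37, 25, 55 and 12 in the pituitary gland, and 1, 6, 8 and 6 in the liver. In the brain they were 88, 151, 1085 and 1785. Brain replicates 3 and 4 thus held most Dlx counts of that tissue, in contrast to LOC106590258, whose highest brain library was replicate 2.

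The genes of the forebrain pairs made up that difference. The paired Dlx1, Dlx2, Dlx5 and Dlx6 genes together had 1040 and 1758 counts in brain replicates 3 and 4, against 9 and 13 in replicates 1 and 2. The unpaired Dlx2b-like gene LOC106569498 was not part of these sums and had 6, 12, 8 and 0 counts in the brain. dlx1 had 2, 1, 191 and 561 counts in the 4 brain libraries, at most 4 in an ovary library and 0 in every pituitary library. dlx2 had 0, 0, 68 and 131 in the brain, and dlx5 had 2, 1, 123 and 190. How much of the forebrain each mid-brain sample took in was not tested.

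LOC106581766 shares the product name Dlx2a-like with LOC106590258, and lies next to the Dlx1a gene LOC106581767 on chromosome 21. Its counts were 176, 142, 152 and 148 in the ovary and 1, 1, 99 and 159 in the brain. The pituitary gland had 0, 1, 3 and 0, and the liver 0, 0, 3 and 2. It was the Dlx gene with the highest ovary count after LOC106590258, at 3.78 CPM ± 0.334 (SD, n = 4). Its neighbour LOC106581767 had 1 or 2 counts in each ovary library and 157 and 234 in brain replicates 3 and 4, so the pair was shared in the brain and not in the ovary.

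Several genes of the Dlx3 and Dlx4 type had ovary counts above the floor, all at low levels. In mammals Dlx3 is known from skin and placenta. LOC106578313, Dlx3b-like, had ovary counts of 34, 38, 56 and 113, and LOC106583891, Dlx3b-like, had 92, 54, 14 and 71. The spread between ovary libraries was wide for both, and both had counts in every brain library. LOC106600936, Dlx3b-like, had 23, 27, 11 and 15 counts in the ovary and 0 in the other 12 libraries. Its partner on chromosome 3, LOC106600935, Dlx4a-like, had 16, 31, 17 and 9 in the ovary and 0 elsewhere. The other tissues were then set to a floor of 3 counts per library. The mean ovary CPM of LOC106600936 was 5.91 times the brain floor, 4.12 times the pituitary floor and 1.73 times the liver floor. These ratios bound the other tissues only and leave out the spread of its ovary counts.

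Of the other Dlx genes, dlx6 had 32, 63, 71 and 63 counts in the ovary, LOC106570474 (Dlx5a-like) between 16 and 32, and LOC106578312 (Dlx4b-like) between 7 and 57. dlx4b, dlx3b and LOC106583890 never exceeded a count of 8 in any library. LOC106569498 had at most 12, in the brain, and 0 in the ovary and liver. The heat map of the Dlx genes shows these patterns beside LOC106590258.

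**Figure D4:**
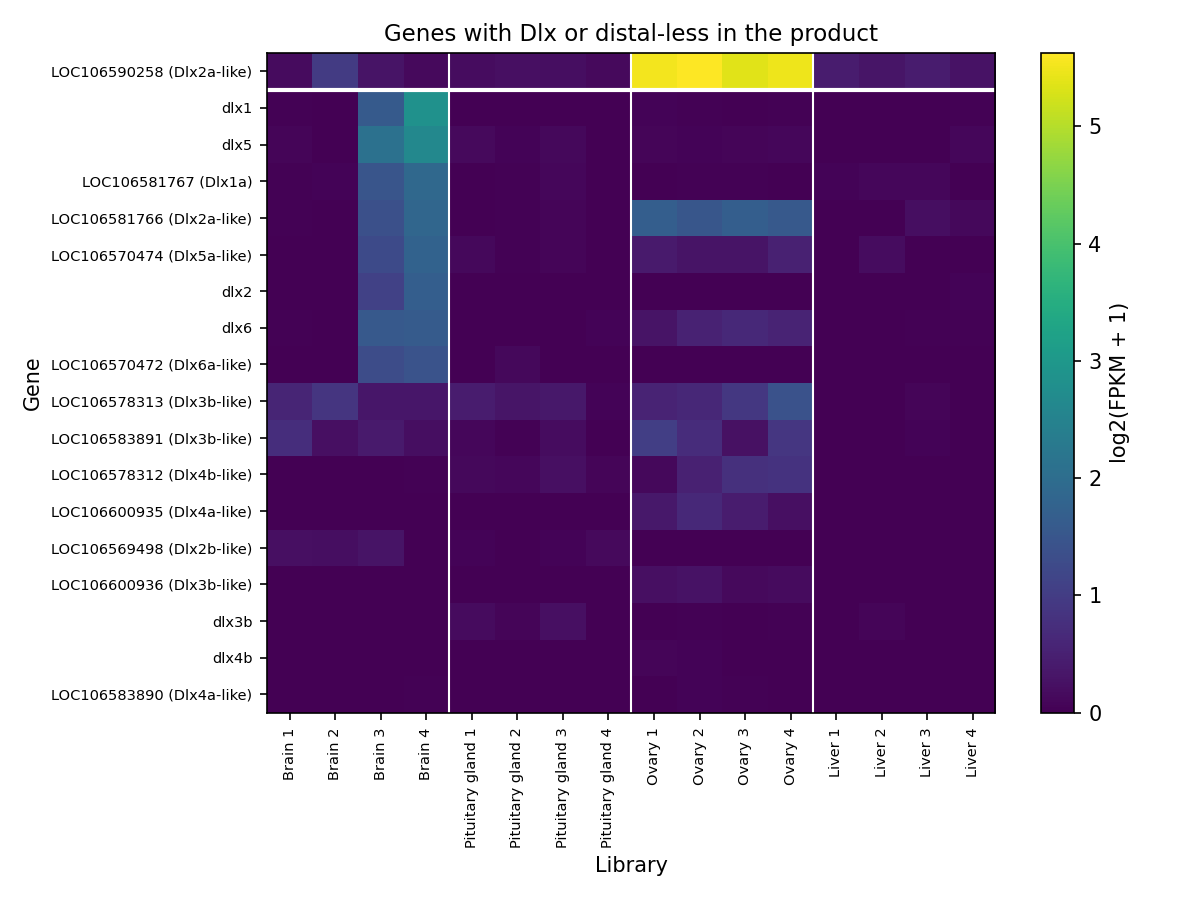
Level of LOC106590258 (top row) and the 17 other Dlx genes (rows by their highest library) in the 16 libraries, as log2(FPKM + 1). LOC106590258 is bright in the 4 ovary libraries, and the rows of the paired Dlx1, Dlx2, Dlx5 and Dlx6 genes are bright in brain replicates 3 and 4.

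Only 6 of the 17 Dlx genes passed the filter for the fit across 37043 genes, which asks for enough counts in enough libraries. dlx1, with 765 counts in all, and dlx5, with 334, did not pass, since nearly all of their counts lay in brain replicates 3 and 4. The 6 thus leave out some of the Dlx genes that were high in those libraries. edgeR's quasi-likelihood test called a gene at a Benjamini-Hochberg adjusted p of at most 0.001 and at least a 4-fold difference. Between pituitary gland and ovary, 3 of the 6 were called higher in ovary, where 18.9% of all genes tested were. The log2 difference was 6.54 (SE 1.49, adjusted p = 0.00083) for LOC106581766 and 3.52 (SE 0.80, adjusted p = 0.00082) for LOC106583891. The third was LOC106600936 (adjusted p = 0.000353), which passed the filter only through its ovary counts. LOC106581766 also needed its ovary counts to pass, since elsewhere it had 99 and 159 counts in brain replicates 3 and 4 and at most 3 in any other library. The same held for dlx6 and LOC106570474, whose higher counts outside the ovary lay in the same brain libraries. The count of 3 and its share of 6 are thus a description and support nothing. The count of called genes ranged from 0 to 5 when single libraries were left out, and it was 0 without ovary replicate 1, 2 or 4. It was also lower with the replicate number as a block, as given in the last section.

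Between ovary and liver, 2 of the 6 were higher in the ovary, where 22.3% of all genes tested were. They were LOC106578313, with a log2 difference of 5.84 (SE 0.99, adjusted p = 5.71e-05), and LOC106583891, with 5.73 (SE 1.17, adjusted p = 0.000315). Without brain replicate 2 the count was 4.

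Between brain and ovary, 1 of the 6 was higher in the ovary, where 19.0% of all genes tested were. It was LOC106600936 (edgeR adjusted p = 0.000181), which had 0 counts outside the ovary and passed the filter only through its ovary counts, so nothing is read from this call. LOC106581766 was not called, with an ovary mean of 3.78 CPM, a brain mean of 1.95 CPM ± 2.36 (SD, n = 4) and a log2 difference of 0.96 (SE 1.02, edgeR adjusted p = 0.39). The count ran from 1 to 3 with single libraries left out. It was 0 with the DESeq2 Wald test, the CPM filter or the replicate number as a block.

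Between brain and liver, LOC106578313 was higher in the brain, by 4.93 on the log2 scale (SE 1.03, edgeR adjusted p = 0.000468), where 22.1% of all genes tested were. That call was lost when any 1 liver replicate was left out, and with the replicate number as a block. In edgeR, 0 of the 6 were called between brain and pituitary gland, where 10.7% of all genes were higher in the brain and 4.91% in the pituitary gland. Of the 6, 4 had an unadjusted p under 0.05 and the DESeq2 Wald test called 2. Without brain replicate 2, edgeR called 2. Between pituitary gland and liver, where 17.3% and 10.9% of all genes were higher in the first and second tissue, 0 of the 6 were called by either tool, and 1 had an unadjusted p under 0.05. Of the 6 genes, 0 were specific to a tissue, meaning called higher against each of the other 3, where 6.11% of all genes tested were specific to the brain, 2.16% to the pituitary gland, 11.1% to the ovary and 5.80% to the liver. LOC106590258 met that definition, as its choice implied.

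Expression in a tissue was taken as 2 or more of its libraries reaching 1 CPM. In the brain 8 of the 17 Dlx genes met this, beside 36.7% of all 81574 genes, and leaving out brain replicate 3 or 4 took the 8 to 0. In the ovary 5 of the 17 met it, beside 30.5% of all genes, and 3 did without ovary replicate 3 or 4. In the pituitary gland and the liver 0 of the 17 did, beside 33.8% and 30.7% of all genes. LOC106590258 itself met it in the ovary and in the liver, and not in the brain or pituitary gland. In the liver it did so through replicates 1 and 3, at 1.10 and 1.09 CPM on 12 counts each. With plain library totals these were at 0.581 and 0.537 CPM, below the limit, so the liver result rests on the scaling. In the brain only replicate 2 reached 1 CPM, at 3.001 CPM.

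LOC106590258 also had low counts in tissues other than the ovary, and these were set beside other ovary transcripts. In the 11 non-ovary libraries apart from brain replicate 2, its counts of 8 to 25 were between 0.141% and 0.442% of its mean ovary count. The comparison set was 10 genes for zona pellucida protein 3, a component of the egg coat, with a mean ovary count of at least 2000. Summed, these had between 0.137% and 0.239% of their mean ovary count in each of the 12 non-ovary libraries. The low counts of LOC106590258 in the pituitary gland, at 0.159% to 0.248%, and in the liver, at 0.141% to 0.212%, overlapped that range. Whether they were made in those tissues was not tested.

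Brain replicate 2 was different. Its 217 counts were 3.84% of the mean ovary count, and at 3.001 CPM, a scale that allows for its greater depth, it was 6.17 times the mean of the other 3 brain libraries. The summed egg coat genes had 0.193% of their mean ovary count there, on raw counts as for the other percentages. Of 6 genes for oocyte factors, 3 had their highest brain CPM in that library, and 3 had it in brain replicate 1 or 3. LOC106560258, a zygote arrest protein 1-like gene, had 102, 535, 212 and 8 counts in the 4 brain libraries, or 3.02, 7.40, 6.26 and 0.244 CPM. LOC106578107, bone morphogenetic protein 15-like, an oocyte growth factor, had 0.444, 1.44, 0.532 and 0.122 CPM. In contrast, zar1l, another zygote arrest gene, had 1.21, 0.346, 1.03 and 1.07 CPM. Summed, the 6 genes were at 6.51, 11.1, 9.43 and 2.65 CPM in brain replicates 1 to 4, most of it from LOC106560258 in replicates 2 and 3, and the 10 egg coat genes at 6.27, 2.97, 4.52 and 5.79 CPM. What part other tissue had in that library was not tested.

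**Figure D5:**
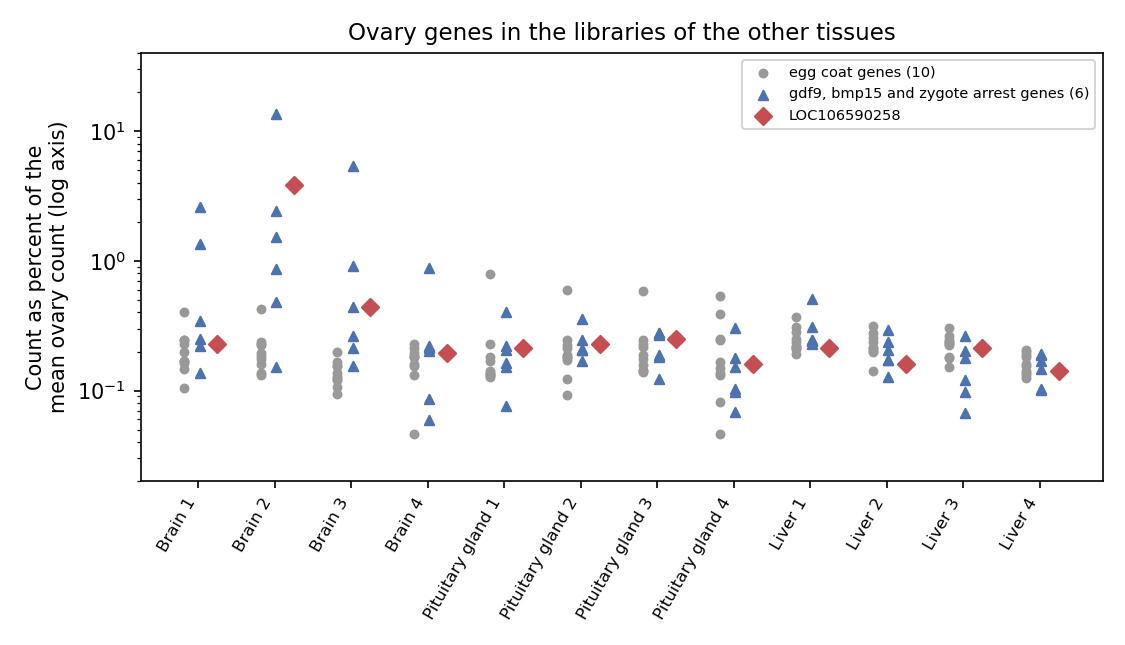
Counts in the 12 libraries of brain, pituitary gland and liver as a percent of the mean ovary count of the same gene (raw counts, not scaled for depth), on a log axis, for 10 egg coat genes, 6 oocyte factor genes and LOC106590258 (values of 0 are not drawn). LOC106590258 is at 3.84% in brain replicate 2 and at most 0.442% in the other 11.

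The 5 genes most like LOC106590258 were found by Pearson's r on log2(CPM + 1) over the 16 libraries, among 37042 genes. They were LOC106600934, an uncharacterized gene (r = 0.9973), LOC106609102, transcription intermediary factor 1-alpha-like (r = 0.9956), LOC106578107, bone morphogenetic protein 15-like (r = 0.9953), LOC106575796, zinc finger protein ZIC 5-like (r = 0.9951), and LOC106577491, transcriptional adapter 2-beta-like (r = 0.9950). All 5 had their highest brain CPM in replicate 2, which the choice by r over these libraries favours. An r of at least 0.99 was reached by 139 genes, since libraries of the same 4 tissues set most of it, and with Spearman's correlation, Euclidean distance or plain library totals only 1 of the 5 stayed among the first 5. The 6 tested Dlx genes had r between 0.10 and 0.96, the highest for LOC106600936.

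Genes known to act in the ovary, from a list of 16 by product name, were mostly higher there. Of 14 tested, 11 were called higher in ovary against brain, 11 against pituitary gland and 9 against liver, where 19.0%, 18.9% and 22.3% of all genes were, and 8 were specific to the ovary, beside 11.1% of all genes. zar1, a zygote arrest gene, had 4330, 4786, 3257 and 3948 counts in the ovary and at most 35 elsewhere. It was higher than in the brain by 7.83 on the log2 scale (SE 0.28, edgeR adjusted p = 1.47e-12). With few counts elsewhere, zar1 and other genes of this list may have passed the filter mainly through the ovary. The counts of called and specific genes are thus a description. The anti-Mullerian hormone gene amh, made by the follicle cells around the oocyte, had ovary counts of 6858, 12418, 7532 and 9189 and at most 45 elsewhere. LOC106570956, a steroidogenic factor 1-like gene, went the other way against the pituitary gland, at 438 to 767 counts there and 64 to 80 in the ovary. Neither forkhead box L2 gene was called against brain or pituitary gland. The log2 differences, ovary minus other, were -0.75 and -0.21 for LOC101448029 and 1.88 and 1.93 for LOC106613173. Against liver, the Wilms tumor genes named wt1 and LOC106587831 were not called.

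Because the newer symbol was nanog, partners of Nanog in pluripotent cells were also listed, after that symbol was read. They were 9 genes for POU5F1, Sox2, Sox3 and Sox19, the last a fish gene of the same Sox group. Of the 9, the 2 POU5F1-like genes were specific to the ovary, beside 11.1% of all genes tested. LOC106563125 had ovary counts of 3520, 4748, 3330 and 3037 and at most 22 elsewhere. Its log2 difference from the brain was 8.37 (SE 0.45, edgeR adjusted p = 8.21e-11). LOC106567323 had 2185, 3008, 1707 and 1736 in the ovary and at most 10 elsewhere. With such low counts elsewhere, both may have passed the filter mainly through the ovary, so their calls are a description. None of the 7 Sox genes was called higher in the ovary than in the brain. LOC106584342, Sox-2-like, had at most 7 counts in an ovary library and between 1189 and 4955 in the brain, with a log2 difference, ovary minus brain, of -9.08 (SE 0.51, edgeR adjusted p = 1.60e-10). Over the list, 2 of 9 were called higher in ovary against brain, 5 against pituitary gland and 6 against liver, where 19.0%, 18.9% and 22.3% of all genes were. In the opposite direction 3 were called higher in brain, 3 in pituitary gland and 1 in liver. The shares of all genes in that direction were 27.6%, 22.3% and 18.5%.

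The Msx genes, a homeobox family near Dlx that acts in limb, tooth and neural crest, gave 1 clear ovary gene. msx2 had 934, 927, 737 and 1060 counts in the ovary, 14, 9, 12 and 43 in the pituitary gland and at most 3 in the brain and liver. Its log2 difference from the brain was 9.15 (SE 0.51, edgeR adjusted p = 1.30e-10). It was the 1 of 3 tested Msx genes specific to the ovary, beside 11.1% of all genes tested. With so few counts elsewhere, msx2 needed its ovary counts to pass the filter, so these calls are a description. At 16.2 FPKM it lay below LOC106590258. Against the liver 2 of the 3 were called higher in the ovary, where 22.3% of all genes were. The second was LOC106603868, MSX-2-like, which was not called against brain or pituitary gland. It had 0.283 FPKM in the ovary and at most 0.0376 FPKM elsewhere as a tissue mean, so that call is also a description.

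A list of 42 genes of forebrain inhibitory neurons, the setting in which Dlx genes are best known, gave mostly brain genes. Of 29 tested, 18 were higher in the brain than in the ovary and 2 in the ovary, where 27.6% and 19.0% of all genes were. The 2 were the Lhx8-like gene LOC106599206, by 8.28 on the log2 scale (SE 0.47, edgeR adjusted p = 1.56e-10), and LOC106569246, a glutamate decarboxylase 1-like gene, by 3.39 (SE 0.49, adjusted p = 9.94e-06). Both were also specific to the ovary, 2 of the 29, beside 11.1% of all genes tested. LOC106599206, at most 0.149 FPKM elsewhere as a tissue mean, may have passed the filter mainly through the ovary, so its calls are a description. The Lhx8 genes LOC106613985 and lhx8 were not called against the brain. Their log2 differences, ovary minus brain, were -2.77 (SE 1.23) and 2.88 (SE 0.92).

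Of the 6 genes nearest to LOC106590258 on chromosome 29, ipo4 and rec8 also had their highest mean in the ovary. The nearest, tm9sf1, a membrane protein gene, runs on the opposite strand, and its last exon overlaps the end of LOC106590258 by 397 bases, or 12.8% of the exon length of LOC106590258. The setting of the counting program for strand was not given. tm9sf1 had its lowest level in the ovary, at 7.82 CPM ± 0.784, and its highest in the liver, at 45.8 CPM ± 2.71 (SD, n = 4 each). On the other side ipo4, an importin gene, begins 2466 bases away and had 42.4 CPM ± 2.74 in the ovary and 9.55 CPM ± 0.374 in the liver (SD, n = 4 each). rec8, a meiotic cohesin gene, had 319 to 380 counts in the ovary, 58 to 82 in the pituitary gland and at most 58 in the brain. Farther out, LOC106590254, programmed cell death protein 6-like, was at 16.3 CPM in the ovary and 19.7 CPM in the brain, pck2, an enzyme of glucose synthesis, was highest in the liver, and LOC106590259 had at most 3 counts in any library.

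Most marker genes were highest in the tissue of the label. This held for 8 of 9 brain genes, 14 of 14 liver genes and 7 of 10 granulosa and theca genes. All 5 genes for growth hormone, prolactin and pro-opiomelanocortin were highest in the pituitary gland, and 22 of 23 oocyte genes were highest in the ovary. The exception among the oocyte genes was LOC100380781, a zona pellucida gene with 60180 to 88967 counts in the liver. Brain replicate 2 had 15.2 CPM for the oocyte genes together, within the 9.87 to 17.8 CPM of the 4 brain libraries, and 2.02 CPM for the 10 granulosa and theca genes, the lowest of the 4. In bulk tissue, fewer cells of a type and less RNA per cell cannot be told apart.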

How the data were processed

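Per the paper's methods, the authors mapped reads from a stranded TruSeq library kit to assembly ICSASG_v2 with TopHat2 2.1.1, sorted them with SAMtools 1.4 and counted unique reads on exons with HTSeq 0.7.2. The deposited values used here are raw counts for 81574 genes, without normalization. A deposited table of centered log2 values was not used, and 0 columns of other samples were present. The annotation gave positions, exons and products.

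Counts were scaled to CPM with TMM (edgeR 4.0.16), over totals between 20.6 M and 51.9 M. After filterByExpr, 37043 genes entered 1 fit with a mean for each tissue (estimateDisp, glmQLFit, glmQLFTest), adjusted over all genes within each of 6 pairs of tissues. The filter asks for enough counts in enough libraries, so a gene high in 1 tissue can pass through that tissue alone. SE is the log2 difference divided by the square root of F. FPKM used merged exon length, which leaves out isoform use. Replicates are animals of 1 stage, and the labels do not say which numbers share an animal. Values in the last section hint that same numbers do, but the fit left the libraries unpaired, so its calls do not allow for this.

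LOC106590258 and the lists were chosen with earlier results of these data known. Named genes were LOC106590258, the other Dlx genes, 3 neighbours on each side, the 5 genes with the highest r and the 5 homeobox genes with the highest ovary FPKM. Genes of the other lists were named after their values were seen. The pluripotency list and its alternatives were added after seeing the data. Symbols of Ssal_v3.1 were matched by identifier for 44360 genes. Chromosome numbers followed the order of the chromosome accessions, and at least 82.7% of the genes of a chromosome lay on the same number there.

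Alternatives were DESeq2 1.42.0 size factors or Wald test, plain totals, other filters, the replicate number as a block, other limits for an expressed gene, other measures of likeness, and each library left out. On simulated data with 36396 genes, 87 of 100 genes changed 16-fold between pituitary gland and ovary and 88 of 100 between brain and liver were recovered, with 0 false calls. Apart from the changed genes, each simulated gene had the same mean in all tissues, and its dispersion was capped. The real tissues differed in far more genes, so the 0 false calls do not carry over to the calls given here. Software was matplotlib 3.10.9, scipy 1.17.1, pandas 2.3.3 and numpy 2.4.6 under Python 3.11.15, and R 4.3.3.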

Additional observations from a re-analysis of the deposited data

Results flagged for a closer look

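LOC106590258 in brain replicate 2 stood apart from the other 3 brain libraries. The gap between its 3.001 CPM and the next library, replicate 3 at 0.739 CPM, was 0.849 of the whole range of the 4 brain libraries, above Dixon's limit for 4 samples. Of 23 groups of 4 libraries with a mean count of at least 10, 1 passed this limit, and chance alone passes about 1 in 20. Dixon's limit served only as a flag here, and 1 flag in 23 groups is near that share. The gap describes counts of a gene that was chosen by its counts in these libraries, so no p is given and nothing is concluded from it.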

How the results depend on the processing

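The 7 fold changes of single Dlx genes gave 150 values, of which 106 kept their call, 44 lost it and 0 changed sign. The order of brain and liver for LOC106590258 did change, since without brain replicate 2 the brain mean was 0.486 CPM and the liver mean 0.909 CPM. The level of LOC106590258 moved with scaling: its ovary mean was 125.3 CPM with DESeq2 size factors and 198.0 CPM with plain library totals, its liver mean was 0.467 CPM with plain totals, and the ratio of ovary to the next tissue was 105.0 with DESeq2 size factors and ran from 100.3 to 151.7 with single libraries left out (highest without brain replicate 2). Plain totals called 3 Dlx genes of brain against liver, 1 of pituitary gland against liver and 4 of ovary against liver. They called 1 Dlx gene specific to the ovary, and 2 Msx genes between pituitary gland and ovary. Over all 37043 genes, plain totals raised those specific to the ovary from 4106 to 5896. They raised calls from 12191 to 16160 (brain and liver) and from 10437 to 12524 (pituitary gland and liver). They also raised calls from 15132 to 19162 (ovary and liver) and from 15277 to 16067 (pituitary gland and ovary). They moved the median of all genes between ovary and liver from 0.38 to 1.82 on the log2 scale (DESeq2 size factors moved that of pituitary gland minus ovary from -0.04 to 0.10), and the share of calls higher in the first tissue from 68.6% to 80.1% (brain and pituitary gland), 67.2% to 87.7% (brain and liver), 54.1% to 41.3% (pituitary gland and ovary), 61.4% to 79.1% (pituitary gland and liver) and 54.6% to 81.2% (ovary and liver). With no filter, 4 Dlx genes were called between brain and ovary, beside 17746 of 47497 genes in all. The CPM filter called 0 there, 0 between brain and liver and 1 between ovary and liver, and 1 Msx gene between ovary and liver. Of all 33177 genes left by the CPM filter, 15578, 11222 and 14255 were called in these pairs. The DESeq2 Wald test called 2 Dlx genes between brain and pituitary gland, 0 between brain and ovary and 3 between brain and liver. It called 2 Msx genes between pituitary gland and ovary. Of all 37043 genes it called 6982, 17841, 13139 and 15963 in these pairs. With a limit of 3 libraries, 0 Dlx genes were expressed in the brain and 3 in the ovary. With single libraries left out, called Dlx genes ran from 0 to 2 (brain and pituitary gland), 1 to 3 (brain and ovary), 0 to 1 (brain and liver), 0 to 5 (pituitary gland and ovary) and 2 to 4 (ovary and liver), called Msx genes from 1 to 2 in both pairs of ovary with pituitary gland and liver, and expressed Dlx genes from 0 to 8 in the brain and 3 to 5 in the ovary. The cause of these changes was not tested.

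With the replicate number as a block, 0 Dlx genes were called between brain and ovary, 0 between brain and liver and 1 between pituitary gland and ovary. With that block 1 Msx gene was called between ovary and liver. Of all 37043 genes, 16824, 11721, 15073 and 14849 were called in these pairs. Correlations of deviations ran from -0.002 to 0.158 over 24 same-numbered pairs, 10 over 0.1. Over 72 different-numbered pairs they ran from -0.092 to 0.056. The best partner had the same number in 42 of 48 cases. All 4 pairs were over 0.1 only between pituitary gland and liver, with 0 Dlx calls with and without the block. These values hint that numbers mark animals, but the main fit did not pair them. Of the 17 Dlx genes, 11 did not pass the filter and were not tested, and some of these were high in brain replicates 3 and 4.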
